A study of Mus musculus with 48 samples.

Results

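The module comprises the 37 genes of the mouse mitochondrial genome, taken as every gene whose symbol starts with mt-, and 6 nuclear copies of mitochondrial genes: Gm13339, Gm13340, Gm13341, Gm11407, Gm10222 and Gm28438. Of these members, 42 had a row among the 37620 genes of the deposited table, and Gm28438 was not analysed here. The 42 were 13 mRNAs, 2 ribosomal RNAs, 22 transfer RNAs and 5 nuclear copies. RNA was sequenced from the nucleus accumbens shell, part of the ventral striatum, cut out by laser from 48 mice of the heterogeneous stock-collaborative cross (HS-CC), an outbred stock. The mice had been bred for 4 generations of selection for a High or a Low preference for ethanol, and polyadenylated RNA was taken for the libraries. The groups were High F, High M, Low F and Low M, with 12 mice each, where F and M are the labelled genders. No group was unselected, and the sources used here do not give age, kinship, ethanol exposure or sequencing batch. All mice came from that stock, and no genotype was given for the mitochondrial genome or the copies.

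The mitochondrial genome is a small circle that is transcribed from both strands into long precursors. Transfer RNAs lie between many of the mRNAs and ribosomal RNAs, and their excision releases the separate transcripts. The mRNAs encode subunits of complex I (Nd genes), complex III (Cytb), complex IV (Co genes) and the ATP synthase (Atp6 and Atp8), and the ribosomal and transfer RNAs serve their translation inside the organelle. Pieces of mitochondrial DNA have been inserted into the nuclear chromosomes during evolution, and such copies can remain close to the mitochondrial sequence.

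Each copy was aligned to its mitochondrial counterpart, called its parent here, with transcripts of GENCODE M21 on build GRCm38. Gm13339, Gm13340 and Gm13341 lie next to each other on the minus strand of chromosome 2, at chr2:22590024-22590533, chr2:22588103-22589647 and chr2:22587291-22587962. Their parents mt-Nd2, mt-Co1 and mt-Co2 lie in the same order at chrM:3914-4951, chrM:5328-6872 and chrM:7013-7696. The bases between Gm13339 and Gm13340 numbered 376, as did those between mt-Nd2 and mt-Co1, where mt-Tw, mt-Ta, mt-Tn, mt-Tc and mt-Ty lie. The bases between Gm13340 and Gm13341 numbered 140, as did those between mt-Co1 and mt-Co2. Gm11407 lies at chr4:80002331-80003388 on the plus strand and Gm10222 at chr1:24612407-24612700 on the minus strand. All 5 copies are annotated as pseudogenes, and each member had a single exon row. On mm9, the build of the deposited files, the exon rows of Gm13341, Gm13340 and Gm13339 start at 22442811, 22443623 and 22445544 of chromosome 2, that of Gm11407 at 79648235 of chromosome 4 and that of Gm10222 at 24619243 of chromosome 1. The 37 mitochondrial starts were the same in both builds.

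The sequences below show how alike a copy and its parent are, in the stretch of 120 bases with most mismatches for both pairs on chromosome 2 that align without gaps. They are given 5′ to 3′ in the direction of the transcript, with mismatches in capitals. Gm13340 aligned to the whole of mt-Co1 with 97.6% identity over 1545 bases and 37 mismatches, of which 6 lie in bases 1174 to 1293.
mt-Co1: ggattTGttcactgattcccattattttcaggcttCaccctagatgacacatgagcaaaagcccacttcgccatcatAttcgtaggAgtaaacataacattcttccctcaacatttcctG
Gm13340: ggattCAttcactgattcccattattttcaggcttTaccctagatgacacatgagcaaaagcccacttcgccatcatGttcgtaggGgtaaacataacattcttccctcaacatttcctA
Gm13339 aligned to bases 529 to 1038 of mt-Nd2 with 96.7% identity and 17 mismatches, of which 7 lie in the stretch shown, bases 662 to 781 of mt-Nd2 and 134 to 253 of Gm13339.
mt-Nd2: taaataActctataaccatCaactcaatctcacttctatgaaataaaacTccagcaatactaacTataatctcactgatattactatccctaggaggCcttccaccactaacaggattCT
Gm13339: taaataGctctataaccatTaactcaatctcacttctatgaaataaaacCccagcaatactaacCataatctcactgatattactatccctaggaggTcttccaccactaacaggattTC
Gm10222 had 0 mismatches with mt-Nd4l over 294 bases, and the first 120 bases stand for both.
mt-Nd4l: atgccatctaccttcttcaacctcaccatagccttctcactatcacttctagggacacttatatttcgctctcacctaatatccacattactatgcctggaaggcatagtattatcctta
The transfer RNAs for tyrosine and glycine are shown whole, because they had the sharpest differences between mice among the mitochondrial genes.
mt-Ty: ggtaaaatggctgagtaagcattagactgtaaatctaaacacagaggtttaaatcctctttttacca
mt-Tg: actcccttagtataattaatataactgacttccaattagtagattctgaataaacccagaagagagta

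The remaining pairs were less alike, with one exception. Gm13341 matched mt-Co2 with 95.9% identity over 684 aligned bases, with 16 mismatches and 12 gap bases, and Gm11407 matched mt-Nd5 with 92.3% identity over 1058 aligned bases and 79 mismatches. The exception was Gm28438, which differs from mt-Nd3 over 345 bases by the single substitution T3C, counted from the first base of mt-Nd3. The longest run without a mismatch was 294 bases in Gm10222, 173 in Gm13341, 148 in Gm13340, 129 in Gm13339 and 95 in Gm11407. The sources used here do not give how reads matching both a copy and its parent were counted, nor the strand setting. Values of a copy and its parent, and of genes that overlap on opposite strands, are therefore uncertain as single genes.

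The deposited values are read counts that the authors normalised and rounded, called normalised counts here. Their column totals ran from 13579559 to 14561911, with 19708 to 20888 genes above 0 per library. The library of High M replicate 1 had the lowest median correlation with the others (0.967, against a median of 0.976 over libraries). Markers of striatal spiny neurons were high, with means of 28392.1 for Ppp1r1b and 29982 for Penk, while the 4 markers of choroid plexus and ependyma, Ttr, Folr1, Foxj1 and Kl, averaged 0.8, 1.9, 53.5 and 95.8. The summed level of 5 markers of cortical pyramidal neurons reached 267 in High F, 1995 in High M, 1001 in Low F and 4813 in Low M mice. In such bulk tissue, fewer cells of a type and less RNA per cell cannot be told apart.

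Among the mRNAs, levels per kb of transcript fell into a high and a low block. mt-Cytb, the mitochondrial subunit of complex III, had the highest mean level over the 48 mice, at 113440 normalised counts per kb, followed by the complex IV subunit mt-Co1 at 85336 and the complex I subunit mt-Nd1 at 77371. mt-Nd4, mt-Nd2, mt-Nd6 and mt-Nd5, all subunits of complex I, followed at 48647, 42989, 31797 and 17269 normalised counts per kb. The other 6 mRNAs lie next to each other on the mitochondrial genome and had from 205.5 normalised counts per kb for mt-Atp6 to 90.35 for mt-Nd4l. Between these extremes came mt-Co3 at 202.5, mt-Co2 at 186.9, mt-Nd3 at 168 and mt-Atp8 at 138.3 normalised counts per kb. mt-Atp6, mt-Co3 and mt-Co2 differed by less than their spread between mice. mt-Nd4l is followed by mt-Nd4, which overlaps its end and belongs to the high block. The ribosomal RNAs mt-Rnr2 and mt-Rnr1, of the large and the small mitochondrial ribosomal subunit, averaged 52781 and 49771 normalised counts per kb, and their ranges overlapped.

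**Figure D1:**
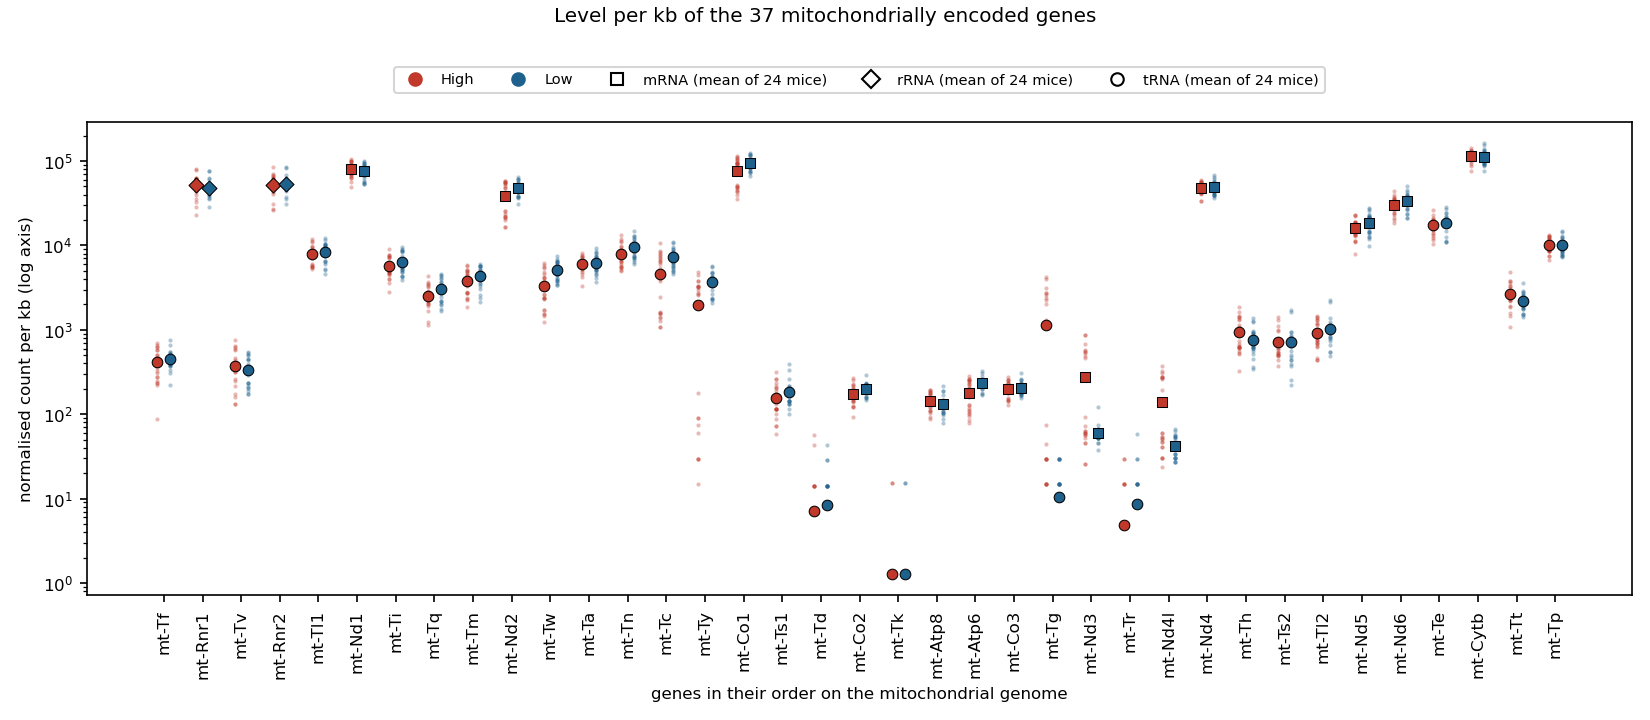
Level of the 37 mitochondrially encoded genes, in normalised counts per kb on a log axis, in their order on the mitochondrial genome. Small points are mice with a value above 0 and large markers are means of the 24 High mice (left of each pair) and the 24 Low mice (right); the 6 mRNAs from mt-Co2 to mt-Nd4l lie at 90.35 to 205.5 per kb, between mt-Co1 at 85336 and mt-Nd4 at 48647.

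A search of all GENCODE transcripts, made after the levels had been seen, found 12 further genes that align to a mitochondrial transcript at 90% identity or more over at least 50 bases. On chromosome 1, beside Gm10222 and Gm28438, Gm28661 was 100% identical to mt-Co2 over 681 bases, Gm10925 to mt-Atp6 over 678 and Gm28437 to mt-Co3 over 783. Next to them, Gm28439 was 100% identical to mt-Nd4 over 876 bases, and Gm29216 was 99.8% identical to mt-Co1 over 483. Values of these 5 genes were not analysed here. Of the 6 mRNAs of the low block, the copies on chromosome 1 outside the module thus match 3, mt-Co2, mt-Atp6 and mt-Co3. Beside them, the module's Gm28438 and Gm10222 match mt-Nd3 and mt-Nd4l. The part of all these copies in the levels of the low block was not tested.

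The 22 transfer RNAs covered a wide range as well. The libraries came from polyadenylated RNA, and whether counts on these short genes stem from mature transfer RNAs or longer precursors was not tested. mt-Te, for glutamate, was the highest, at 17950 normalised counts per kb, followed by mt-Tp for proline at 10065 and mt-Tn for asparagine at 8739. mt-Tk, for lysine, was the lowest, at 1.282 per kb, with 44 of 48 mice at 0. mt-Td and mt-Tr, for aspartate and arginine, were at 0 in 31 and 33 mice and never above 4 normalised counts. Along the mitochondrial genome, mt-Td, mt-Tk and mt-Tr lie between mt-Co1 and mt-Nd4, in the stretch where the mRNAs were low. mt-Ts1 and mt-Tg lie there as well, with means of 170.9 and 581.8 normalised counts per kb. Outside that stretch, mt-Tv and mt-Tf averaged 356.9 and 432.3 per kb. 17 of the 22 reached 1 ppm (ppm being scaled to the mean library total, with 1 ppm equal to 14.06 normalised counts) in at least 12 libraries and were tested. mt-Ts1, mt-Tg, mt-Td, mt-Tk and mt-Tr did not, and mt-Ts1 and mt-Tg reached it in 10 libraries each.

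The first comparison asked which members differed between the lines. With limma on log2(value + 0.5 ppm), 4 of the 37 members tested had a Benjamini-Hochberg adjusted p under 0.05 over all genes, where 0.28% of the 15350 genes tested were called. 2 were higher in High (0.143% of all genes) and 2 lower (0.137%). The higher ones were the copies Gm13341, with a log2 difference of 3.64 ± 0.847 (SE, adjusted p = 0.0347), and Gm13339, with 3.88 ± 0.939 (adjusted p = 0.0499). The lower ones were the transfer RNA for tryptophan, mt-Tw, and that for tyrosine, mt-Ty. By role, 0 of 13 mRNAs, 0 of 2 ribosomal RNAs, 2 of 17 transfer RNAs and 2 of 5 copies were called by limma, and 6, 0, 5 and 5 had an unadjusted p under 0.05, as had 9.07% of all genes. Gm11407 passed the filter with 16 libraries, of which 10 are those of the mice in which it was high and 6 are others, so it was tested only through the high mice and its values are a description. The median log2 difference was -0.04 over the mRNAs and -0.15 over the transfer RNAs tested, against -0.0028 over all genes. The calls of Gm13341 (adjusted p = 0.069), Gm13339 (0.0952) and mt-Ty (0.0611) were lost without the filter on low values, and that of Gm13339 also with other scalings (0.0504 and 0.0509).

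**Figure D2:**
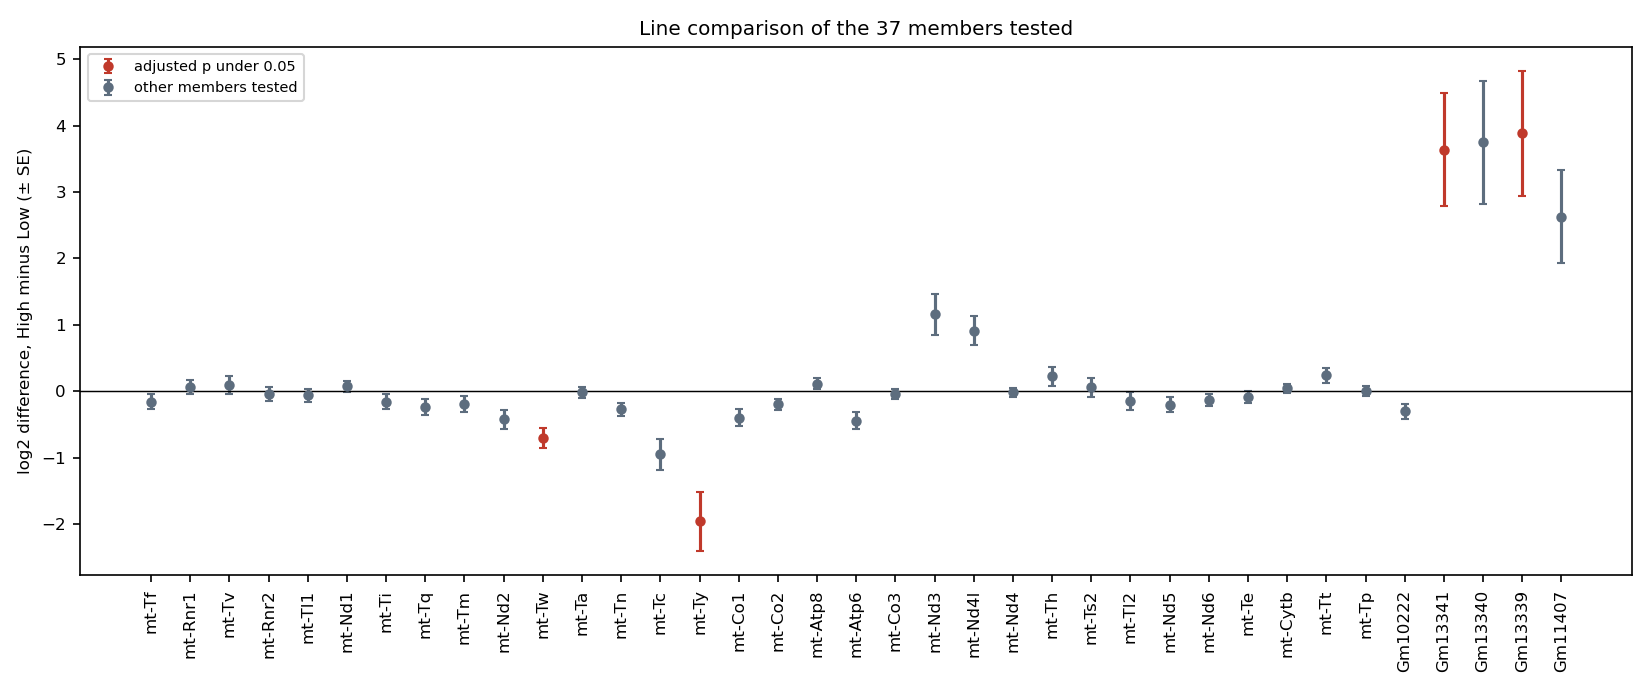
Log2 difference, High minus Low, with its standard error for the 37 members tested, in the order of the mitochondrial genome and then the copies. mt-Tw (-0.71) and mt-Ty (-1.96) lie below 0 and Gm13341 (3.64) and Gm13339 (3.88) above it with an adjusted p under 0.05; mt-Tc, mt-Nd3, mt-Nd4l, Gm13340 and Gm11407 are as far from 0 or further than mt-Tw without passing it.

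mt-Tw had a lowest, median and highest normalised count of 98, 168.5 and 391 in High F and 82, 234.5 and 410 in High M mice. In Low F mice these were 228, 305.5 and 433, and in Low M mice 225, 365 and 502. 12 of 24 High mice lay below every Low mouse, and the rest overlapped the Low mice. The log2 difference was -0.71 ± 0.152 (SE, limma, adjusted p = 0.0233). The median of the Low mice was exceeded by 4 of 24 High mice. The difference was -0.71 both in F mice and in M mice, without passing the threshold in either (adjusted p = 0.554 in F and 0.375 in M).

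mt-Ty had a lowest, median and highest normalised count of 0, 109.5 and 325 in High F and 4, 176 and 300 in High M mice. The corresponding counts were 140, 240 and 314 in Low F mice and 152, 273 and 386 in Low M mice. The High mice fell into those at 12 or below, 10 in number, and those at 141 or above, whose values overlapped the Low mice. The mean log2 difference of -1.96 ± 0.445 (adjusted p = 0.0307) thus describes no single mouse.

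mt-Tc, the transfer RNA for cysteine, had lowest, median and highest normalised counts of 72, 292 and 712 in High F, 85, 309.5 and 559 in High M, 304, 410 and 566 in Low F and 315, 548 and 714 in Low M mice. 12 of the 24 High mice lay below every Low mouse. Its log2 difference of -0.95 ± 0.232 missed the threshold (SE, limma, adjusted p = 0.053).

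No mRNA was called, and those with the largest log2 differences lay on both sides of 0. mt-Nd3 had lowest, median and highest normalised counts of 9, 93 and 300 in High F, 9, 21.5 and 305 in High M, 16, 18 and 23 in Low F and 13, 20.5 and 42 in Low M mice. 10 High mice lay above every Low mouse and the others overlapped them, with a log2 difference of 1.16 ± 0.307 (SE, limma, adjusted p = 0.0868). mt-Nd4l had 7, 47 and 111 in High F, 9, 17 and 97 in High M, 8, 10 and 17 in Low F and 8, 14 and 20 in Low M mice. Here too 10 High mice lay above every Low mouse.

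mt-Nd2 had lowest, median and highest normalised counts of 20965, 34979 and 58480 in High F, 17151, 43796.5 and 60468 in High M, 31769, 45142 and 63577 in Low F and 39237, 53043 and 67308 in Low M mice. Its log2 difference was -0.42 ± 0.141 (SE, limma, adjusted p = 0.25). mt-Co1 had 61016, 109720 and 175278 in High F, 54021, 142256 and 171211 in High M, 103654, 134138 and 186406 in Low F and 118594, 153966 and 189631 in Low M mice. Its log2 difference was -0.40 ± 0.127 (adjusted p = 0.223). For both mRNAs 10 High mice lay below every Low mouse. mt-Atp6, a subunit of the ATP synthase, averaged 121.8 ± 46.74 in High and 158.1 ± 26.21 in Low mice (SD, n = 24 each), with a log2 difference of -0.44 ± 0.1235 (SE, limma, adjusted p = 0.108).

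Several members with high levels overlapped between the lines for all but 1 to 3 of the High mice. mt-Cytb had lowest, median and highest normalised counts of 110573, 133718 and 162491 in High F, 87623, 131549 and 153071 in High M, 88154, 111664 and 174965 in Low F and 105267, 137414 and 185155 in Low M mice. The groups overlapped, and the log2 difference was 0.04 ± 0.0708 (SE, limma, adjusted p = 0.912). mt-Nd5 averaged 29227 ± 7141 in High and 33772 ± 9070 in Low mice, a log2 difference of -0.20 ± 0.1073 (adjusted p = 0.591). The ribosomal RNA mt-Rnr2 averaged 82677 ± 21961 in High and 84323 ± 19660 in Low mice (adjusted p = 0.938), and mt-Rnr1 48967 ± 13319 in High and 46096 ± 10836 in Low mice (adjusted p = 0.905). mt-Te, the highest transfer RNA, averaged 1195 ± 262.4 in High and 1282 ± 320.2 in Low mice (adjusted p = 0.845).

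Markers of oligodendrocytes and myelin were examined in the same fit. By limma 0 of 8 were called, 7 had an unadjusted p under 0.05, against 9.07% of all genes, and all 8 had a log2 difference below 0, with a median of -0.25. Their summed level ran from 9114 to 22245 in High F and from 7747 to 18885 in High M mice, against 13883 to 22432 in Low F and 11741 to 22827 in Low M mice. Their part in the line differences was not tested. Each of the 7 lists for other cell types had 0 called and at most 1 marker with an unadjusted p under 0.05.

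The mice were then examined for members that were either high or low with nothing between. A member was called all-or-none where sorted log2 values had a gap of at least 2 units with 2 or more mice on either side. 6 of 42 members met this rule, mt-Ty, mt-Tg, Gm13339, Gm13340, Gm13341 and Gm11407, against 0.229% of all 37620 gene rows. Among the 15350 genes tested, 0.378% met it. The members were chosen with earlier results of these data known, so their count and the Fisher test below are a description. Every one of the 6 split the mice in the same way, into 10 High mice on one side and the other 14 High and all 24 Low mice on the other. The 10 were High F replicates 2, 3, 5, 8, 11 and 12 and High M replicates 2, 5, 6 and 11. Fisher's exact test (two-sided) of 10 of 24 High against 0 of 24 Low mice gave p = 0.0006 (adjusted p = 0.0012 over the 12 tests of line and gender for the 6 members, which repeat 1 split). The 6 of 24 F against 4 of 24 M mice gave p = 0.724 by the same test.

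**Figure D3:**
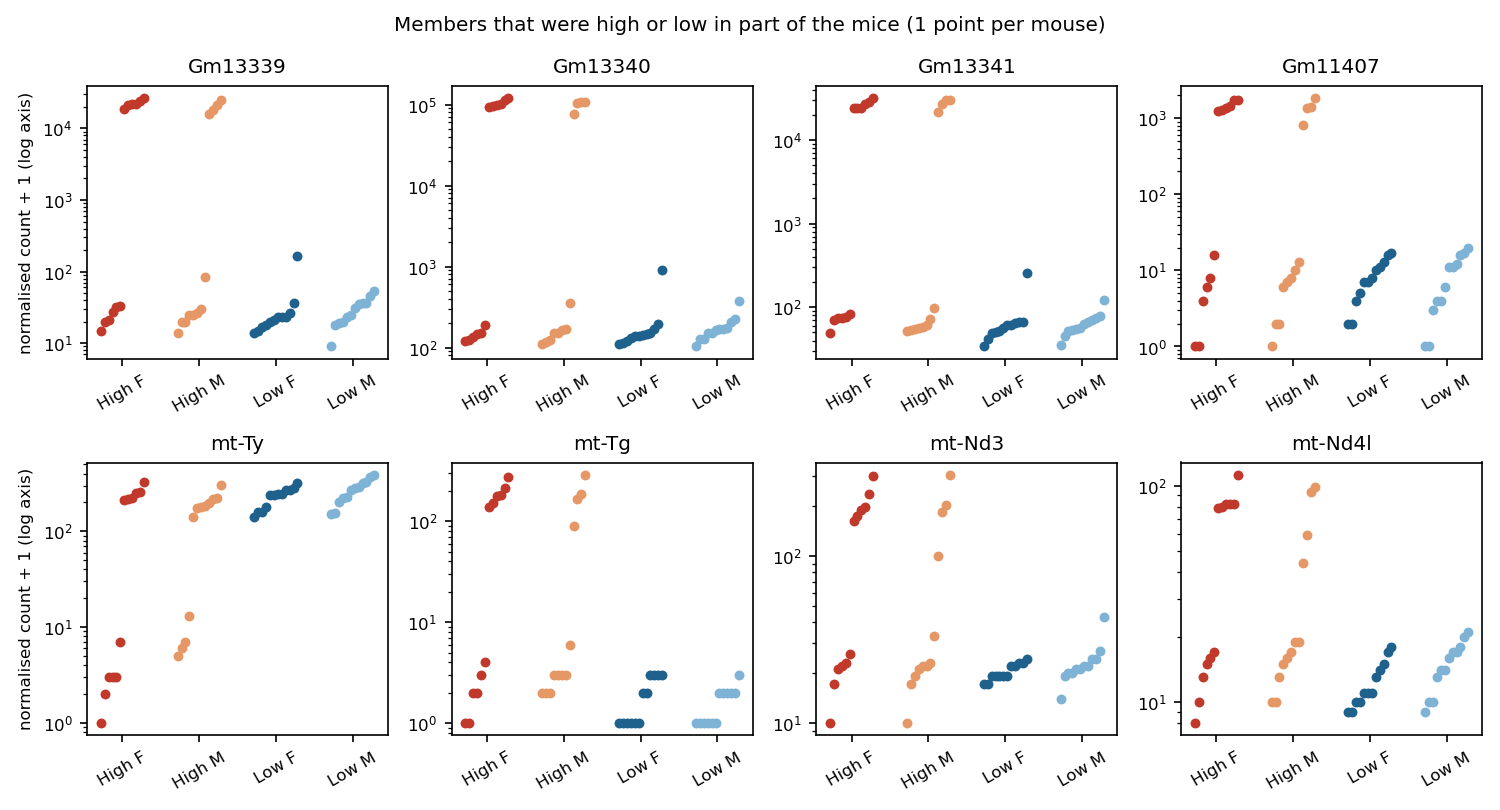
Normalised count plus 1, on a log axis, of 8 members in each of the 48 mice by group (1 point per mouse, sorted within its group). Gm13339, Gm13340, Gm13341, Gm11407 and mt-Tg are high, and mt-Ty low, in 6 High F and 4 High M mice and in no Low mouse; mt-Nd3 and mt-Nd4l are higher in those mice with a smaller gap.

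Gm13340, the copy of mt-Co1, had the highest level of the copies. In High F mice its lowest, median and highest normalised counts were 118, 47070 and 118994, and in High M mice 111, 166.5 and 108224. In Low F mice they were 108, 140.5 and 901, and in Low M mice 102, 165 and 376. The 10 mice lay between 76224 and 118994 and the 38 others between 102 and 901, with no mouse between 901 and 76224. Its line difference in limma, 3.75 ± 0.931 (SE), did not pass the threshold (adjusted p = 0.0597). The highest value outside the 10 mice was in Low F replicate 1, which also had the highest such values of Gm13339 (165) and Gm13341 (254). The next were Low M replicate 3, with 376 normalised counts of Gm13340, and High M replicate 1, with 350.

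Gm13341, the copy of mt-Co2, lay between 21542 and 31365 normalised counts in the 10 mice and between 33 and 254 in the others. Gm13339, the copy of part of mt-Nd2, lay between 16035 and 26281 in the 10 mice and between 8 and 165 in the others. By group, Gm13341 had medians of 11931.5 in High F, 66 in High M, 58.5 in Low F and 59 in Low M mice, and Gm13339 of 9422.5, 27, 21 and 27. The medians of High M mice thus lay near those of the Low groups, since 8 of the 12 High M mice were on the low side. Gm11407, the copy of mt-Nd5 on chromosome 4, lay between 808 and 1826 in the 10 mice and between 0 and 19 in the others. Its medians were 625 in High F, 8 in High M, 6.5 in Low F and 7.5 in Low M mice. Its log2 difference between the lines was 2.63 ± 0.7 (SE), given as a description.

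mt-Tg, for glycine, behaved like the copies in direction, with 89 to 288 normalised counts in the 10 mice and 0 to 5 in the others. Its medians were 70.5 in High F, 2 in High M, 0.5 in Low F and 0.5 in Low M mice. The Low mice had at most 2, and 12 of the 24 were at 0. mt-Ty, for tyrosine, was the reverse, with 0 to 12 in the 10 mice and 140 to 386 in the others. Both are short transcripts, shown above, that lie apart from each other on the mitochondrial genome, mt-Ty on the minus strand beside mt-Co1 and mt-Tg on the plus strand beside mt-Nd3.

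Over all 37620 gene rows, 8 split the mice into the same 10 and 38, of which 6 are the members above. The other 2 were Gm11408 and Gm11410, which were picked out by this search and not by the module's rule. Gm11408 aligned to mt-Nd6 with 93.6% identity over 519 bases and Gm11410 to mt-Cytb with 92.9% over 1142. They follow Gm11407 on chromosome 4, at chr4:80003396-80003914 and chr4:80003989-80005131, in the order of mt-Nd5, mt-Nd6 and mt-Cytb. Gm11408 had 692 to 1436 normalised counts in the 10 mice and 0 to 13 in the others, and Gm11410 had 53 to 96 against 0 to 6. The copy Gm11512 of mt-Co1, on chromosome 11, had 0 to 4 in the 10 mice and 0 to 3 in the others.

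Beside the 6 all-or-none members, 7 others had ranges in the same 10 mice that did not overlap those of the 38 others. Since the mice are told apart by measured values here, these ranges are a description. mt-Nd3, a complex I subunit, lay between 99 and 305 normalised counts in the 10 mice and between 9 and 42 in the others. mt-Nd4l, another complex I subunit, lay between 43 and 111 against 7 to 20. Both were higher in the 10 mice. Lower were mt-Nd2, with 17151 to 26588 against 31769 to 67308, and mt-Co1, with 54021 to 79674 against 103654 to 189631. mt-Tw had 82 to 160 against 175 to 502, mt-Tc 72 to 161 against 251 to 714, and mt-Atp6 54 to 88 against 109 to 224. The 5 members mt-Nd2, mt-Tw, mt-Tc, mt-Ty and mt-Co1 lie within one stretch of the mitochondrial genome, which is the stretch that Gm13339 to Gm13340 matches in order and spacing. mt-Ta and mt-Tn, which lie in it as well, overlapped between the 10 mice and the others, with 357 to 529 against 225 to 634 for mt-Ta. In all, 29 of the 42 members overlapped in this way, among them mt-Cytb with 87623 to 150571 in the 10 mice and 88154 to 185155 in the others.

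**Figure D4:**
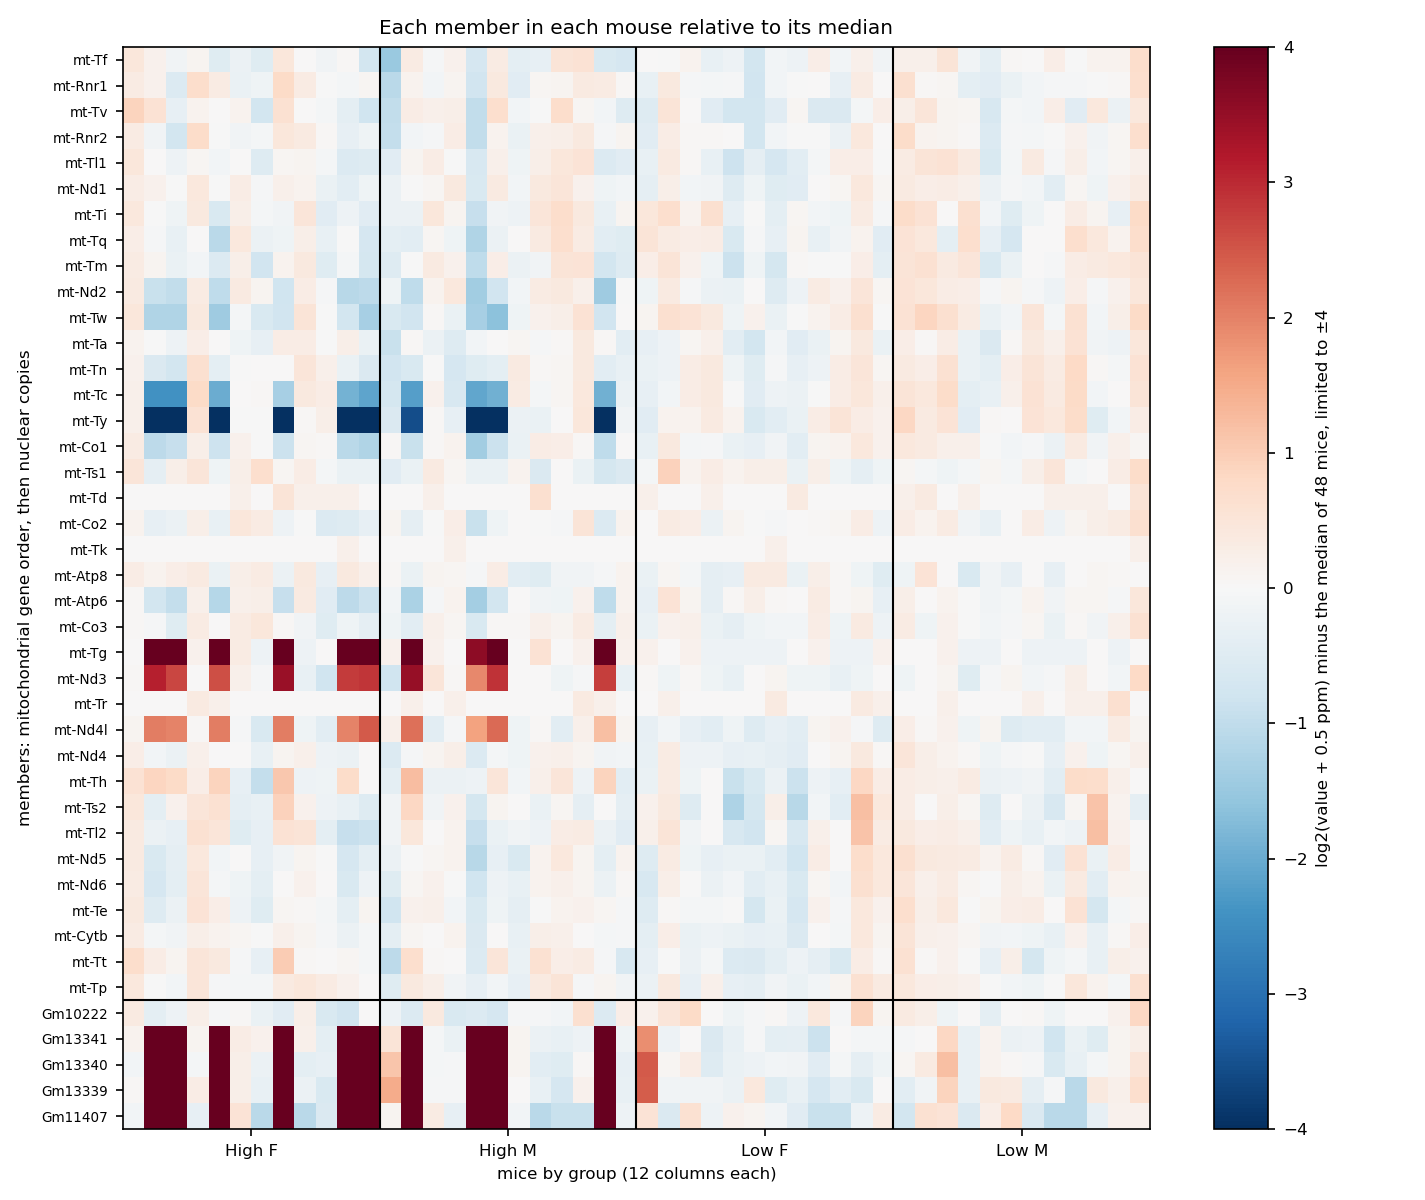
Each of the 42 members (rows, in mitochondrial order and then the copies) in each of the 48 mice (columns, by group and replicate), as log2(value + 0.5 ppm) minus the member's median over all mice, limited to ±4. The columns of 6 High F and 4 High M mice show high values of mt-Tg, mt-Nd3, mt-Nd4l and 4 copies and low values of mt-Nd2, mt-Tw, mt-Tc, mt-Ty, mt-Co1 and mt-Atp6, and no Low column shows this set.

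The spread between mice was compared between the lines by limma on absolute deviations from the group median. 8 of the 37 members tested varied more between High mice, and 0 less, where 0.0586% of all genes were called, 0.0521% as more and 0.00651% as less variable. These 8 were Gm13340, Gm13339, Gm13341, Gm11407, mt-Nd3, mt-Nd4l, mt-Ty and mt-Tc. Over all 15350 genes 9 were called, so 1 gene outside the module was called, and it varied less between High mice. Mean absolute deviations were larger in High by 3.66 ± 0.475 log2 units for Gm13340 (SE, adjusted p = 1.37e-08), by 1.60 ± 0.329 for mt-Ty (0.00577) and by 0.72 ± 0.159 for mt-Tc, the transfer RNA for cysteine (0.0224). For mt-Nd3 the difference was 1.16 ± 0.205 (0.000241) and for mt-Nd4l 0.72 ± 0.141 (0.00189). Gm11407 entered this test only through the mice in which it was high, so its call adds nothing to the other 7. These calls follow the same 10 mice and are not independent of each other. The members were chosen with earlier results of these data known, so their count beside that of all genes is a description. With a filter of 5 ppm in 24 libraries, which leaves 25 members, Gm13340 was the 1 member called.

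Copy and parent were next added up in each mouse, to see whether their sum differed between the lines. The sum of mt-Nd2 and Gm13339 had a lowest, median and highest value of 39778, 49085.5 and 58511 in High F and 33268, 47568.5 and 60492 in High M mice. It was 31785, 45171 and 63591 in Low F and 39261, 53067.5 and 67325 in Low M mice. The lines overlapped throughout, with a log2 difference of -0.02 (permutation test with 100000 resamples, two-sided, adjusted p = 0.86). Within that sum the share of Gm13339 was 20.5% ± 24.7 in High and 0.0654% ± 0.0757 in Low mice (SD, n = 24 each, difference 20.4 percentage points, adjusted p = 0.00167). In the 10 mice it was 47.3% to 51.4%, and in the others at most 0.408%. Gm13339 aligned to only 49.1% of mt-Nd2, while Gm13340 aligned to 100% of mt-Co1, so their shares are not directly comparable.

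For mt-Co1 and Gm13340 the sum averaged 159893 ± 19983 in High and 146367 ± 25578 in Low mice, a log2 difference of 0.14 (permutation test, p = 0.0383, adjusted p = 0.0956). The share of Gm13340 was 57.9% to 60.6% in the 10 mice and at most 0.776% in the others. Its mean share was higher in High by 24.5 percentage points (adjusted p = 0.00167).

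mt-Co2 and Gm13341 gave another picture, with mt-Co2 low in every mouse. mt-Co2 had a lowest, median and highest normalised count of 64, 122.5 and 182 in High and 101, 132.5 and 200 in Low mice. The sum with Gm13341 was 21606 to 31472 in the 10 mice and 131 to 379 in the others, and its log2 difference between the lines was 2.96 (permutation test, adjusted p = 0.0014). Gm13341 made up 99.6% to 99.7% of the sum in the 10 mice and 20.2% to 67% in the others. The sum leaves out Gm28661, which is 100% identical to mt-Co2 over 681 bases and was not analysed here. The part of Gm28661 in the low level of mt-Co2 was not tested.

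mt-Nd5 and Gm11407 summed to 29821 ± 6798 in High and 33779 ± 9070 in Low mice, a log2 difference of -0.17 (permutation test, adjusted p = 0.301). The share of Gm11407 was small, from 5.29% to 5.88% in the 10 mice and at most 0.0686% in the others. The mean share was higher in High by 2.31 percentage points, given as a description because Gm11407 passed the filter only through the 10 mice.

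**Figure D5:**
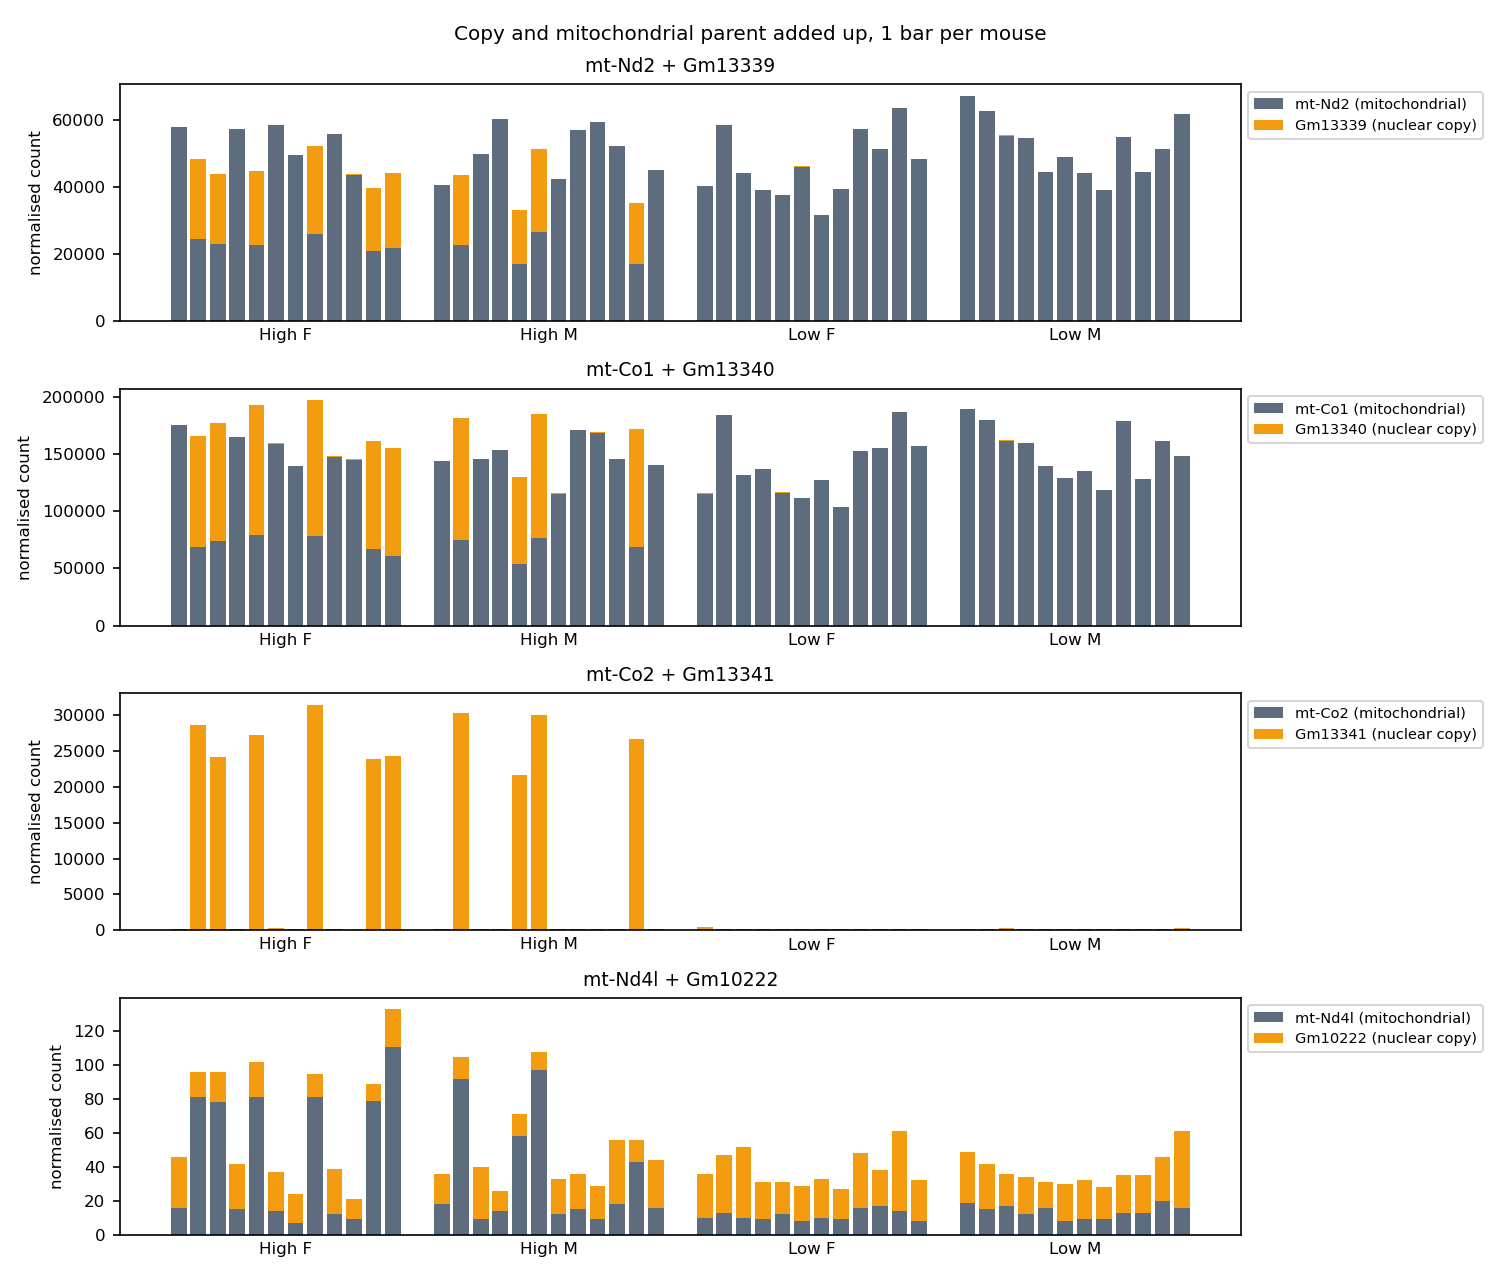
Normalised counts of a copy (orange) stacked on its mitochondrial parent (grey), 1 bar per mouse in replicate order within each group, for 4 pairs. In the 10 High mice the copy makes up 47.3% to 51.4% of mt-Nd2 + Gm13339, 57.9% to 60.6% of mt-Co1 + Gm13340 and at least 99.6% of mt-Co2 + Gm13341, while for mt-Nd4l + Gm10222 it makes up 10.2% to 23.2%.

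Gm10222, which has no mismatch with mt-Nd4l in the 294 bases they share, differed from the other copies. Its normalised counts were 10 to 30 in High F, 11 to 38 in High M, 18 to 47 in Low F and 15 to 45 in Low M mice, with no gap between mice. The line difference was -0.31 ± 0.107 (SE, limma, adjusted p = 0.283). mt-Nd4l itself had a log2 difference of 0.91 ± 0.223 (limma, adjusted p = 0.053). The sum of both averaged 60.83 ± 33.09 in High and 38.5 ± 9.961 in Low mice, and its log2 difference was 0.50 (permutation test, adjusted p = 0.0216). The share of Gm10222 in it was 43.6% ± 24.6 in High and 66.7% ± 8.02 in Low mice, a difference of -23.1 percentage points (adjusted p = 0.0014). In the 10 mice the share was 10.2% to 23.2%, and in the others 46.2% to 80.8%, so this difference follows the same mice. Both genes were low, and mt-Nd4l reached 1 ppm in only 24 of 48 libraries. Reads that fall wholly within these 294 bases fit either gene.

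The share of the whole library was then compared. The 37 mitochondrially encoded genes held 4.36% ± 0.847 of the normalised counts in High and 4.63% ± 0.825 in Low mice (SD, n = 24 each, permutation test, p = 0.265, adjusted p = 0.568). For the 13 mRNAs the shares were 3.39% ± 0.674 in High and 3.66% ± 0.657 in Low mice (adjusted p = 0.568), and for the ribosomal RNAs 0.936% ± 0.239 and 0.928% ± 0.215 (adjusted p = 0.984). The 22 transfer RNAs held 0.0386% ± 0.00786 in High and 0.0432% ± 0.0082 in Low mice (adjusted p = 0.322). The 5 copies held 0.449% ± 0.546 in High and 0.00229% ± 0.00171 in Low mice (adjusted p = 0.00432), with up to 1.27% in 1 High F mouse. All 42 members together held 4.81% ± 0.661 in High and 4.64% ± 0.825 in Low mice (adjusted p = 0.568).

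Within each gender, limma called none of the 37 members. In F mice 0.0261% of all genes were called, 0.0195% as higher and 0.00651% as lower in High, and in M mice 0%. An unadjusted p under 0.05 was reached by 14 members and 4.68% of all genes in F mice, and by 12 members and 6.93% of all genes in M mice. The differences of the copies had wide errors, for example 4.52 ± 1.316 for Gm13340 in F mice (SE, adjusted p = 0.507) and 2.97 ± 1.316 in M mice (adjusted p = 0.674). The line differences in F and in M mice were compared directly, and 0 of 37 members were called by limma, as was 0% of all genes. mt-Ta, for alanine, and mt-Tt, for threonine, had an unadjusted p under 0.05, with differences of 0.41 ± 0.173 and 0.48 ± 0.219, as had 2.4% of all genes. Between F and M mice over both lines, limma called 0 of 37 members, and 0 reached an unadjusted p under 0.05, against 4.21% of all genes. By the adjusted p 0.0782% of all genes were called, 0.0456% as higher and 0.0326% as lower in F. All 17 transfer RNAs tested had a difference below 0, from -0.50 for mt-Ty to -0.0064 for mt-Tt, and the sums and shares of copies gave adjusted p values of 0.455 or more.

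Each member's exon row held the same value as its gene row in all 48 mice, so the exon table repeats these values among other rows. Of 39 members tested there, 1 was called by limma, mt-Tg, which entered through the lower filter of 0.1 ppm, against 0.00875% of 148532 exon rows (0.00471% higher and 0.00404% lower in High). Its log2 difference was 3.45 ± 0.646 (SE, adjusted p = 0.0318), and 2.00 with a larger pseudocount (adjusted p = 0.0912). mt-Tg passed the 0.1 ppm filter mostly through High mice and had at most 2 normalised counts in Low mice, so its call is a description. An unadjusted p under 0.05 was reached by 18 members and by 4.91% of all exon rows, and the 18 included mt-Tw (adjusted p = 0.0696) and mt-Ty (adjusted p = 0.118).

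Nuclear genes that act on mitochondrial DNA and RNA were looked at beside the module. Of 19 genes of mitochondrial DNA replication and transcription, 0 were called between the lines by limma, where 0.28% of all genes were called. An unadjusted p under 0.05 was reached by 1 of the 19 (5.26%), against 9.07% of all genes. That gene was Twnk, the mitochondrial replicative helicase, with 312.7 ± 26.67 normalised counts in High and 332.6 ± 25.41 in Low mice (log2 difference -0.09 ± 0.0358, adjusted p = 0.39). Of 36 genes of mitochondrial RNA processing, stability and modification, limma called 0, and 2 (5.56%) reached an unadjusted p under 0.05. Supv3l1, a helicase of mitochondrial RNA decay, had 440.8 ± 35.91 in High and 407.1 ± 35.21 in Low mice (adjusted p = 0.217), and Mrm1, a methyltransferase of mitochondrial ribosomal RNA, had 90.75 ± 19.55 and 102.8 ± 12.43 (adjusted p = 0.318). Of 32 aminoacyl-tRNA synthetases and translation factors of the mitochondrion, limma called 0, and 1 (3.12%) reached an unadjusted p under 0.05. This was the alanyl-tRNA synthetase Aars2, with 516.7 ± 86.77 in High and 582.8 ± 113.4 in Low mice (adjusted p = 0.437). Each of these shares rests on 1 or 2 genes, and none was tested against the 9.07% over all genes. The medians of the 3 lists were -0.04, -0.02 and 0.0044 on the log2 scale, against -0.0028 over all genes.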

How the data were processed

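The deposited gene and exon tables hold a score per feature and library, read counts that the authors normalised and rounded, with 37620 gene rows and 247845 exon rows on mm9. The sources used here do not give the normalisation. Without roles, the submitters' processing notes name edgeR 3.4.2, R 3.0.2, STAR 2.4.0, FastQC and CASAVA. Column totals differed by 1.07 times at most, no library pair was identical, and nothing in the labels said that mice were littermates or not, so the p-values cover only the spread among these mice.

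No count model was used, because the authors' normalisation and rounding leave values that are no longer raw counts. log2(value + 0.5 ppm), with 1 ppm equal to 14.06 units, was tested with limma 3.58.1 (trended variances, R 4.3.3) over the 15350 genes at 1 ppm or more in 12 libraries, all 4 groups in one fit. Exon rows used 0.1 ppm and a pseudocount of 0.05 ppm. A fold change on this scale understates that of low genes. Benjamini-Hochberg adjustment ran over all features, with 0.05 as the threshold. Sums and shares were tested with 100000 resamples in numpy 2.4.6, where 1e-05 is the smallest p possible. These p-values were adjusted over 20 tests of sums and copy shares and 12 of library shares. Fisher's exact test used scipy 1.17.1. Alignments used blastn 2.17.0 on GENCODE M21 transcripts. The fits and the all-or-none rule were tested on simulated data.

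Symbols were found for 32897 gene IDs and not for 4723. The members and lists were chosen with earlier results of these data known. Named with values were members called, all-or-none, parents of copies or highest or lowest per kb, and at most 2 genes of smallest p per pathway list without a call. Some members outside this rule, such as mt-Atp6, mt-Ta and mt-Tt, were given with values as well. The search over all gene rows for all-or-none genes, the search for other copies and the spacing were added after the values had been seen. Other pseudocounts, filters, scalings, library weights and the loss of High M replicate 1 were tried.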

Additional observations from a re-analysis of the deposited data

How the results depend on the processing

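No paired analysis was possible because each mouse has its own number in the labels and the groups share none. Of the alternatives, 205 summary values were counted as unchanged. For counts of calls this allowed a moderate change, for example from 43 to 32 genes between the lines without the filter on low values. For sums and shares it means the same direction and side of the threshold, whatever the size. Of the values of single members, 328 kept their direction and side of the threshold. While 5 such values gained a call, 10 lost one, members being counted once per alternative. Between the lines 4 members and 43 genes were called. This became 2 members without the filter on low values (mt-Tw and mt-Tg), 2 members and 25 genes with 5 ppm in 24 libraries (mt-Tw and mt-Ty), and 8 members and 80 genes with library weights. In F mice the 4 genes called became 2 without the filter and 7 with library weights. For variability, the 9 genes called became 15 without the filter, 1 with 5 ppm in 24 libraries and 15 with library weights, and the 8 members became 1 with 5 ppm. In the exon table the 1 member called became 0 with a pseudocount of 0.5 ppm and 0 with a filter of 1 ppm. The stricter filters test fewer members, but mt-Ty and mt-Tc were still tested with 5 ppm in 24 libraries and lost their variability calls. For these and the other changes the cause was not tested. Differences close to 0 turned round: the ribosomal RNA share on a log2 scale (-0.00407 between lines and 0.00874 between genders), mt-Ta (0.02) and mt-Nd4 (0.00) without High M replicate 1, and mt-Nd4 (0.01) with library weights. The all-or-none members numbered 7 with a gap of 1 log2 unit, 4 with a gap of 3 and 5 with a pseudocount of 2 ppm. Low transcripts are limited by depth, as mt-Tk, mt-Td and mt-Tr never exceeded 4 normalised counts.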
